A study of Homo sapiens with 6 samples.

Results

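The genes described here are 40 genes of sphingolipid synthesis and turnover, taken from a list of gene symbols and read in total RNA of 293T cells given a miR-941 mimic or a scrambled oligonucleotide. All 40 were listed in at least 1 of 6 libraries, among 26613 genes in all. Of these, 37 had enough counts to be tested, together with 15607 genes of the whole table. 293T is a readily transfected derivative of HEK293 human embryonic kidney cells, and all libraries came from this 1 line. In the mimic group, 3 cultures received a double-stranded miR-941 oligonucleotide at 10 nM with a cationic lipid reagent. In the mock group, 3 cultures received a scrambled oligonucleotide with the negative-control protocol, and no concentration was recorded for it. Both groups were therefore transfected, and effects of oligonucleotide dose and of its sequence cannot be told apart. For the time of harvest, no value was given in the sources used here. The labels name the transfections as 3 independent replicates but no separate cell stocks, so p-values measure the spread between these cultures.

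Sphingolipids are built on a long-chain base that serine palmitoyltransferase makes from serine and palmitoyl-CoA in the endoplasmic reticulum. Acylation and desaturation then give ceramide, which is the branch point of the pathway. Ceramide receives a phosphocholine head group to become sphingomyelin, a sugar to become a glycosphingolipid, or a phosphate to become ceramide 1-phosphate. Ceramidases release sphingosine from it, and sphingosine kinases turn sphingosine into the signalling lipid sphingosine 1-phosphate (S1P), which a lyase finally cleaves.

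A microRNA lowers mRNAs that pair with its seed, the bases 2 to 8 of the mature strand, so the sequence of miR-941 and matches to it in 3′ UTRs of the sphingolipid genes are shown first. The mature strand is the same in 5 genes in RefSeq (GRCh38.p14), and capitals mark its seed. In the sites, written in the sense of the mRNA, capitals mark the match, which is GCCGGGT for bases 2 to 8 in CERK, and CCGGGT for bases 2 to 7 at both places in SMPD3.
hsa-miR-941: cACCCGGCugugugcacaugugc
CERK: gttcctcatgctGCCGGGTgggttttgcag
SMPD3, nearer the stop codon: ttagtatgaggaCCGGGTtcgtgtactctc
SMPD3, farther from it: cctgcctgccccCCGGGTggggctgcggct

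The CERK match lies at chr22:46685851-46685857 on the minus strand of GRCh38, at base 1277 of a 3′ UTR of 2723 bases in the last of 13 exons. CERK and SGPP2 were the only ones of the 37 tested sphingolipid genes with GCCGGGT in the longest annotated 3′ UTR (sense strand), a share of 5.41%. Among all 13015 tested genes with an annotated 3′ UTR, 634 held it, or 4.87%. Of the 634, 80 fell (12.6%) and 40 rose (6.31%), against 832 (6.72%) and 936 of the 12381 genes without it. In the wider list of pathway genes described last, ASAH2B and ST8SIA5 held it (4.17%) and neither passed the test. Of 7 genes there with CCGGGT (14.6%), HACD2 fell and 6 did not pass. Among all tested genes with an annotated 3′ UTR, 13.4% held CCGGGT, and 10.1% of those fell. The 8-base site GCCGGGTA and the 7-base site CCGGGTA, which overlap these matches by 7 and 6 bases, were found in none of the 37. Among all tested genes with an annotated 3′ UTR, 0.469% and 1.5% held them. In the coding sequence of the transcript with the longest 3′ UTR, GCCGGGT was found in KDSR and CERS4, again 5.41%. The share was 5.57% among all 13015 tested genes with an annotated 3′ UTR. Coding sequences of other transcripts were not searched. A match is a run of letters in an annotated transcript, and binding was not measured.

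Library totals ranged from 6079420 to 7651046 counts. On principal components mimic replicate 3 and mock replicate 3 each lay apart from the other libraries of their group, on the second and the third component. Of 10 genes typical of HEK293 cells, 9 were measured and NEFL was listed in no library. The summed level of the 9 was 2302 to 2378 CPM in the mimic and 2157 to 2245 CPM in the mock libraries. Of the 9, NEFM (0.55 ± 0.07, edgeR adjusted p 9.13e-10) and KRT18 (0.18 ± 0.05, edgeR adjusted p 0.00741, and 0.000566 to 0.0817 over the alternatives) rose and 7 did not pass. CPM, the usual count unit scaled by library size, were computed on sizes corrected with edgeR's TMM factors. Of 8 markers of other cell types, 5 had any count and all stayed at or below 3.06 CPM, summing to 1.73 to 2.37 CPM in the mimic and 2.98 to 3.48 CPM in the mock libraries. The part of either marker list in the results was not tested. No miR-941 gene was listed in any library, and the amount of miR-941 in the cells is unknown.

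Sphingolipid genes were more often lower than higher after the mimic. Of 37 tested, 9 fell (24.3%) and 1 rose (2.7%), where among all tested genes 6.19% fell and 6.80% rose. A gene was called when edgeR's quasi-likelihood test gave a Benjamini-Hochberg adjusted p under 0.05 over all tested genes. The fallen genes were SMPD1, UGT8, CERK, B4GALT6, CERS2, UGCG, B4GALT5, SPTLC2 and DEGS1, and the risen gene was SMPD4. The declines ranged from 12% in DEGS1 to 46.5% in SMPD1. At an unadjusted p under 0.05, 15 of the 37 differed (40.5%), against 25.5% of all tested genes. The median log2 fold change was −0.10 over the 37 genes against 0.00 over all tested genes, and 28 of the 37 were negative (75.7%, against 49.6%). In 12 genes (32.4%) all mimic libraries lay below all mock libraries, and in 5 (13.5%) all lay above, against 13.9% and 14.4% of all tested genes. These counts describe a list chosen with results of these data known, and the list itself was not tested. In bulk RNA a lower level in every cell and a loss of the transcript in some cells cannot be told apart.

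**Figure D1:**
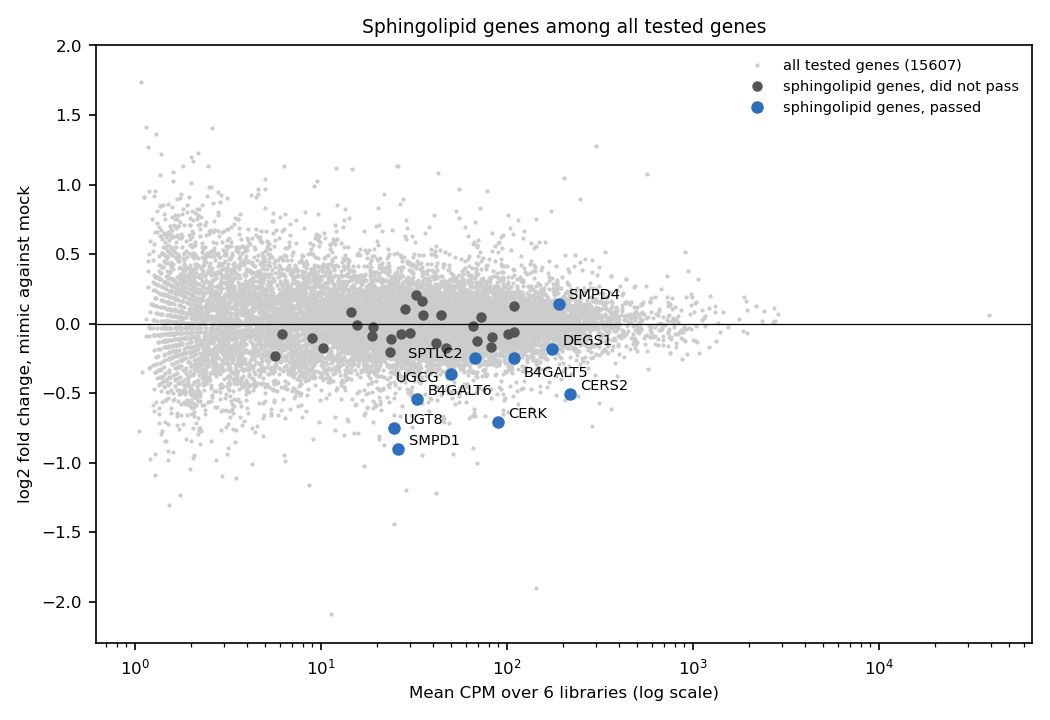
Log2 fold change of the mimic against the mock group (vertical axis) by mean CPM over 6 libraries (horizontal axis, log scale) for all 15607 tested genes (light grey), with the 27 sphingolipid genes that did not pass (dark grey) and the 10 that passed (blue, named). Of the 10 named genes, 9 lie below 0 and SMPD4 lies above it.

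In de novo synthesis, 3 of 10 tested genes fell and none rose, where 6.19% of all tested genes fell and 6.8% rose. Of the 10, 5 had negative log2 fold changes, and the median was −0.02. The largest decline was in CERS2 (chromosome 1, 150960583 to 150975004, minus strand of GRCh38), the ceramide synthase that attaches very-long-chain acyl groups. CERS2 stood at 185, 178 and 177 CPM in mimic replicates 1 to 3 and at 252, 260 and 256 CPM in mock replicates 1 to 3. The groups were far apart, with little spread within either. Its log2 fold change was −0.51 ± 0.05 (SE), with an edgeR adjusted p of 3.77e-13. Exons of CERS2 overlap 948 bases of SETDB1 on the opposite strand, a gene with 45% of the CPM of CERS2, and SETDB1 did not pass (0.07 ± 0.06, edgeR adjusted p 0.474). No label states whether reads were counted by strand.

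The other ceramide synthases did not pass the test. CERS6, which prefers palmitoyl-CoA, had 115, 110 and 118 CPM with the mimic and 108, 102 and 104 CPM in the mock group. All its mimic libraries lay above all mock libraries, yet the difference of 0.13 ± 0.06 did not pass (edgeR adjusted p 0.137). CERS5, with a similar substrate, had 45 ± 2.2 CPM (SD, n = 3) with the mimic and 43 ± 2.1 CPM without, with overlapping groups. CERS4 was at 8.65 ± 0.94 and 9.35 ± 1.4 CPM. CERS1, the synthase of stearoyl-ceramide, was at 14.8 ± 2.41 and 14.2 ± 3.28 CPM, and its value is uncertain, since 2517 bases of its exons are shared with GDF1 on the same strand.

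Per kilobase of exon, CERS2 was the highest of the 5 ceramide synthases in both groups, at 55.1 ± 0.91 CPM per kb in the mock and 38.8 ± 0.98 CPM per kb in the mimic group. CERS6 followed at 14.5 ± 0.41 and 15.8 ± 0.56 CPM per kb, then CERS5, CERS1 and CERS4. In the mock group the ranges of neighbours in this order did not overlap. With the length of the longest transcript, however, CERS5 (14.3 ± 0.7 CPM per kb) overlapped CERS6 (14.5 ± 0.42) in the mock group. CERS1 (4.29 to 6.86) also overlapped CERS4 (3.24 to 4.37), and CERS2 stood at 101 ± 1.65 CPM per kb. The summed level of the 5 genes was 82.1 ± 0.59 CPM per kb in the mock and 67.3 ± 0.91 CPM per kb in the mimic group. CERS2 made up 67.2% ± 1.41 of that sum in the mock and 57.6% ± 0.92 in the mimic group, and CERS6 17.6% ± 0.5 and 23.5% ± 1.07. With the length of the longest transcript the sum was 139 ± 0.65 in the mock and 111 ± 1.94 in the mimic group, and the shares were 72.4% ± 1.3 and 63.8% ± 1.07 for CERS2 and 10.4% ± 0.32 and 14.3% ± 0.71 for CERS6. A share of a sum moves when any other part does, so the larger share of CERS6 does not by itself show a rise of CERS6.

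**Figure D2:**
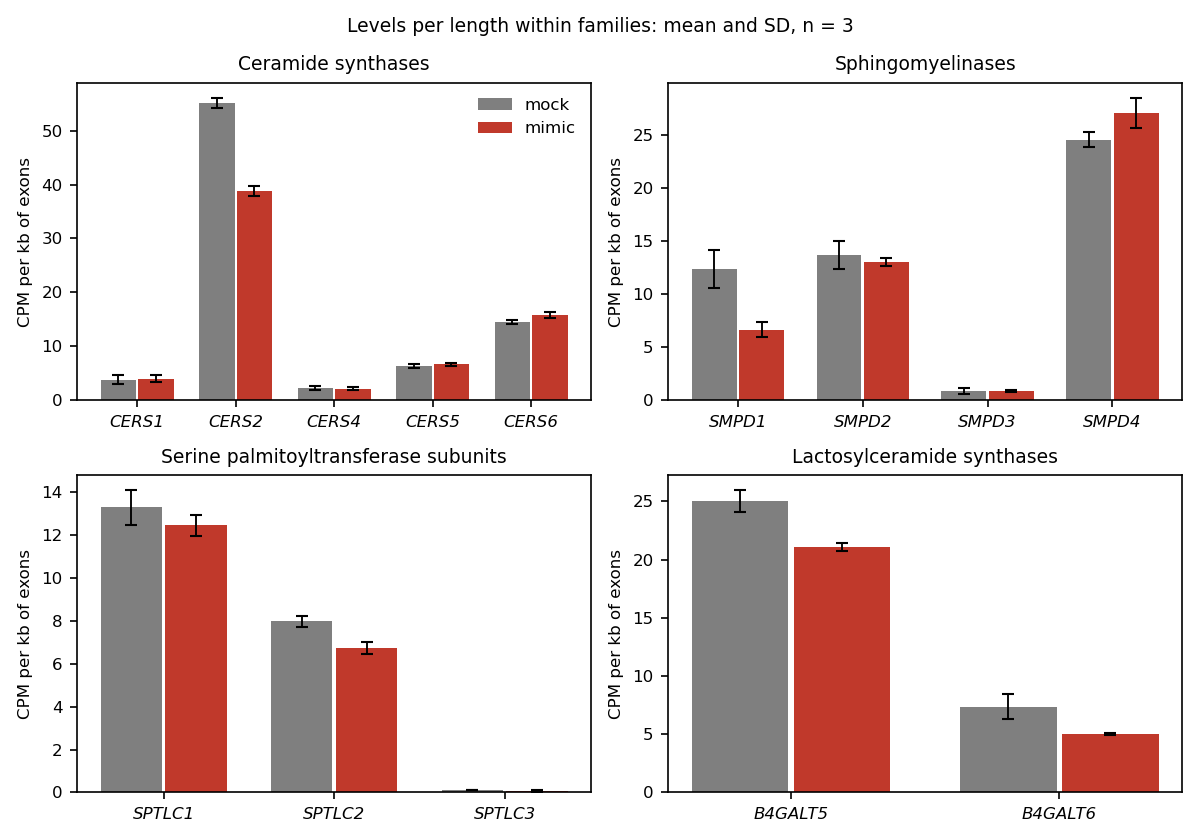
Levels in CPM per kb of annotated exons (vertical axes, from 0) of the genes of 4 families in the mock (grey) and mimic (red) groups, with bars as means and error bars as SDs over 3 libraries. CERS2 falls from 55.1 to 38.8 CPM per kb and SMPD1 from 12.4 to 6.63 CPM per kb, while their relatives differ less between the groups.

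Serine palmitoyltransferase starts the pathway with a shared subunit, SPTLC1, and a catalytic subunit, SPTLC2 or SPTLC3. SPTLC2 (chromosome 14, 77505997 to 77616773, minus strand) was measured at 62.6, 63.3 and 58.4 CPM with the mimic and at 75.5, 71.7 and 71.3 CPM in the mock group. The highest mimic library stayed below the lowest mock library. Its change of −0.25 ± 0.07 passed (edgeR adjusted p 0.0062) but not without mock replicate 1 (0.0617, the highest of 11 alternatives, which began at 0.00446). SPTLC1, at 80.8 ± 3.14 and 86.1 ± 5.17 CPM, had overlapping groups and did not pass (−0.10 ± 0.06). SPTLC3 had 1 to 7 counts in each library and was not tested. Of the small activating subunits, SPTSSA had 36.1 ± 3.64 and 34.3 ± 4.93 CPM, and SPTSSB, with 4 to 13 counts in each library, was not tested.

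Reduction of the first intermediate precedes acylation, and desaturation follows it. KDSR, the reductase, did not pass, at 74.2 ± 1.38 and 71.6 ± 2.85 CPM. DEGS1 (chromosome 1, 224175756 to 224193441, plus strand), the desaturase that turns dihydroceramide into ceramide, was measured at 169, 158 and 164 CPM with the mimic and at 179, 188 and 192 CPM in the mock group. The groups did not overlap, with mimic replicate 1 nearest to the mock libraries. The change was −0.18 ± 0.05 (edgeR adjusted p 0.0072), and it did not pass without mock replicate 3 (0.0656, the highest of 11 alternatives, which began at 0.0039). Its relative DEGS2, with 1 to 5 counts in each library, was not tested.

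ORMDL proteins bind serine palmitoyltransferase and hold its activity down when ceramide is plentiful. None of the 3 genes passed. ORMDL3 came nearest, at 76.4, 83.1 and 71.1 CPM with the mimic and 89.5, 85.9 and 84.1 CPM in the mock group. These groups did not overlap, but mimic replicate 2 was close to mock replicate 3. The change of −0.17 ± 0.06 had an edgeR adjusted p of 0.0623, and it passed without mimic replicate 2 (0.0186, with the other alternatives up to 0.244). ORMDL1 and ORMDL2 had log2 fold changes of −0.02 ± 0.07 and −0.14 ± 0.08 with overlapping groups. Exons of ORMDL2 overlap those of DNAJC14 and ENSG00000257390 on the opposite strand, which had 177% and 221% of its CPM, so its value is uncertain. Per kilobase ORMDL3 was the highest of the family in the mock group (23.1 ± 0.74 CPM per kb), and the ranges of ORMDL1 (16.8 ± 1.31) and ORMDL2 (15.5 ± 0.85) overlapped. With the length of the longest transcript, the mock ranges of ORMDL1 (22.5 to 25.9) and ORMDL2 (19.1 to 21.1) did not overlap.

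**Figure D3:**
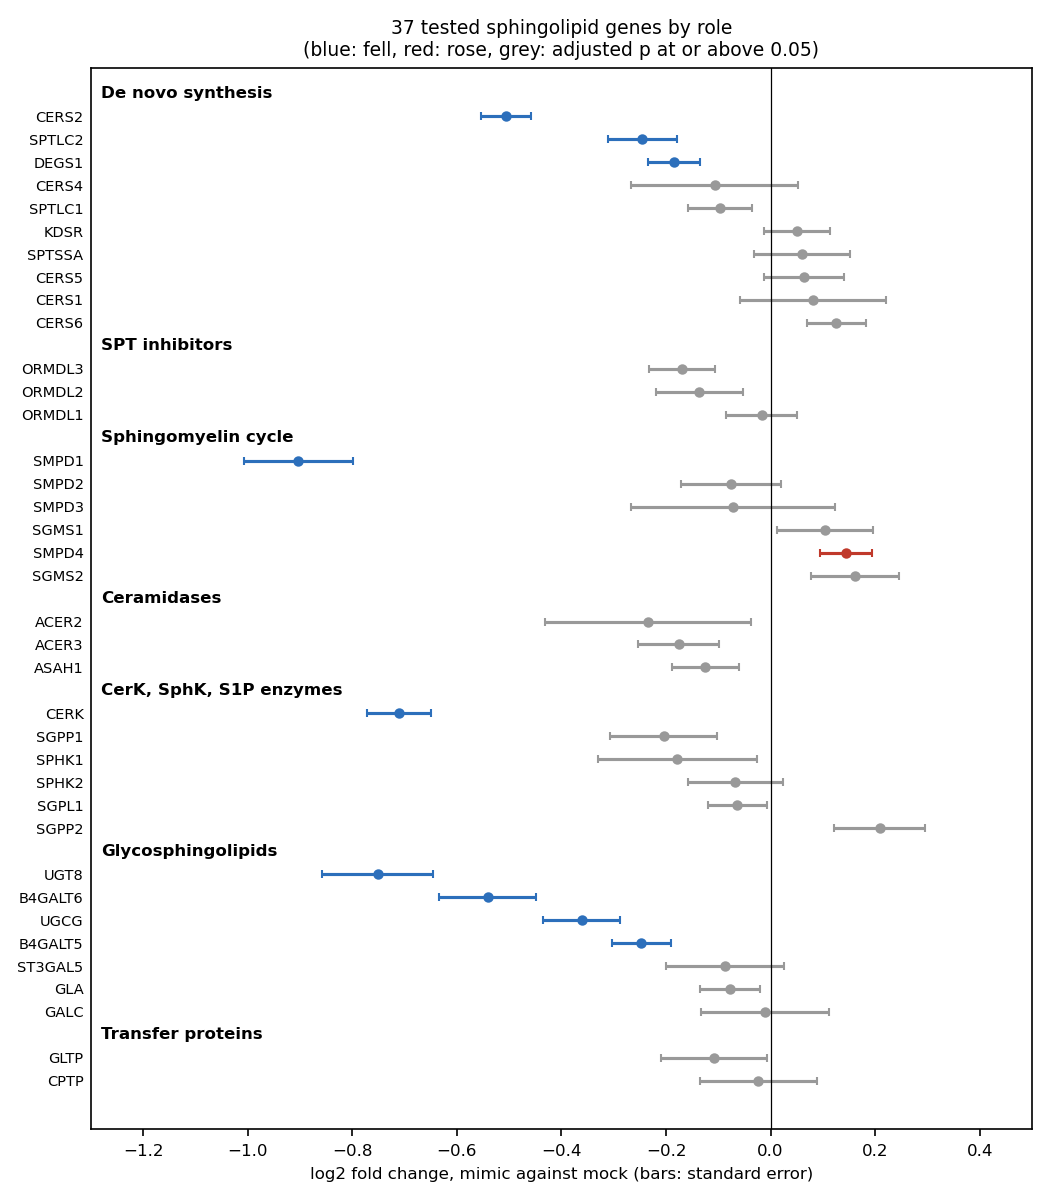
Log2 fold change of the mimic against the mock group (horizontal axis; bars are standard errors) for the 37 tested sphingolipid genes, grouped by role. Blue genes fell, SMPD4 (red) rose and grey genes did not pass. The values range from −0.90 in SMPD1 to 0.21 in SGPP2, and 4 of 7 glycosphingolipid genes are blue. Of all tested genes 6.19% fell, and no role was tested as a group.

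In the sphingomyelin cycle the 2 directions of change fell on different sphingomyelinases, the enzymes that release ceramide from sphingomyelin. SMPD1 (chromosome 11, 6390431 to 6394998, plus strand) encodes the acid sphingomyelinase of lysosomes, whose loss causes Niemann-Pick disease types A and B. It was measured at 16.9, 17.3 and 20.5 CPM with the mimic and at 36.2, 28.5 and 37.4 CPM in the mock group. Mock replicate 2 was the lowest of its group and still lay well above every mimic library. The log2 fold change was −0.90 ± 0.10, with an edgeR adjusted p of 6.99e-10, the largest decline of all 37 genes.

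SMPD4 (chromosome 2, 130151392 to 130182750, minus strand), a neutral sphingomyelinase of the endoplasmic reticulum and nuclear envelope, was the gene that rose. Its levels were 208, 203 and 188 CPM with the mimic and 183, 175 and 185 CPM in the mock group. Mimic replicate 3 was close to the mock libraries. The change of 0.14 ± 0.05 had an edgeR adjusted p of 0.043, and the call ended in 8 of 11 alternatives, whose adjusted p ranged from 0.00308 to 0.246. It ended under DESeq2's Wald test (0.155) and without each library except mimic replicate 3. Exons of SMPD4 overlap 815 bases of MZT2B on the opposite strand, a gene with 38% of the CPM of SMPD4 (0.05 ± 0.07, did not pass).

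The neutral sphingomyelinases SMPD2 and SMPD3 did not pass, at 26.3 ± 0.76 against 27.6 ± 2.69 CPM and 6.06 ± 0.56 against 6.31 ± 1.94 CPM. SMPD3 exons overlap those of PRMT7 on the opposite strand, which had 853% of its CPM, so that its value is uncertain. Per kilobase, SMPD1 lay below SMPD2 in the mimic group (6.14 to 7.44 and 12.6 to 13.4 CPM per kb). In the mock group their ranges overlapped per kilobase of all exons (10.4 to 13.6 and 12.9 to 15.3) but not per kilobase of the longest transcript (11.6 to 15.2 and 15.7 to 18.7). SMPD1 made up 24% ± 3.02 of the summed level of the 4 sphingomyelinases in the mock and 13.9% ± 1.71 in the mimic group. For the sphingomyelin synthases, SGMS1 (29.3 ± 1.01 against 27.3 ± 1.15 CPM) and SGMS2 (36.8 ± 0.99 against 32.9 ± 1.29 CPM), all mimic libraries lay above all mock libraries. Neither passed (0.10 ± 0.09 and 0.16 ± 0.08).

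CERK (chromosome 22, 46684411 to 46738261, minus strand), the kinase that makes ceramide 1-phosphate and the gene with the first site printed above, was measured at 64.1, 69.7 and 70 CPM with the mimic. In mock replicates 1 to 3 it stood at 108, 108 and 118 CPM. Every mimic library was far below every mock library. The log2 fold change of −0.71 ± 0.06 had an edgeR adjusted p of 1.09e-14, the smallest of the sphingolipid genes, which placed CERK at rank 24 of 15607 tested genes by p. Each of the other 8 fallen sphingolipid genes lacked GCCGGGT in its longest annotated 3′ UTR, and SMPD3, with CCGGGT matches, did not pass.

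Of the other enzymes of phosphorylated sphingolipids none passed. SGPP2, an S1P phosphatase and the other gene with a GCCGGGT match, was measured at 35.6, 34.1 and 35.1 CPM with the mimic and at 30.4, 31.1 and 29 CPM in the mock group. It was thus higher in every mimic library, opposite to CERK, with a change of 0.21 ± 0.09 (edgeR adjusted p 0.104). Its relative SGPP1 was lower in every mimic library, at 19.9, 24.4 and 21.4 CPM against 26.2, 24.9 and 24.6 CPM, with mimic replicate 2 nearly level with the mock libraries (−0.20 ± 0.10, edgeR adjusted p 0.193). The difference between these 2 changes was not tested. The sphingosine kinases SPHK1 (9.58 ± 1.93 against 10.9 ± 1.11 CPM) and SPHK2 (29.5 ± 1.9 against 31 ± 2.26 CPM) overlapped between the groups. SPHK2 exons overlap those of the ribosomal protein gene RPL18 on the opposite strand, which had 2671% of its CPM, and SPHK1 exons overlap those of PRPSAP1 with 476%, so both values are uncertain. SGPL1, the S1P lyase at the exit of the pathway, was at 107 ± 3.62 and 112 ± 4.69 CPM.

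The ceramidases all had negative values but did not pass. ASAH1, the acid ceramidase of lysosomes, was at 64.7, 65.7 and 68.8 CPM with the mimic and 73.9, 70.1 and 73 CPM in the mock group. The groups lay side by side without overlap (−0.12 ± 0.06, edgeR adjusted p 0.215). ACER3, an alkaline ceramidase, was at 46.7, 41.9 and 43.3 CPM against 43.9, 51.7 and 54.1 CPM. Mock replicate 1 of ACER3 fell within the mimic range, and without it the change passed (edgeR adjusted p 0.04, with the other alternatives up to 0.459, against 0.135 with all libraries). ACER2, a Golgi ceramidase, was low, at 5.23 ± 0.58 and 6.12 ± 1.22 CPM.

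The glycosphingolipid genes had the highest share of declines of any role, 4 of 7 (57.1%), against 6.19% of all tested genes. The roles divide a list chosen with results of these data known, and no role was tested. The 4 fallen genes encode the enzymes that add the first sugars to ceramide. UGT8 (chromosome 4, 114598455 to 114678224, plus strand) makes galactosylceramide, the main glycolipid of myelin. It was measured at 15.8, 18.3 and 21.2 CPM with the mimic and at 34.3, 30.3 and 27.5 CPM in the mock group. Spread was wide within both groups but they did not overlap, and the change was −0.75 ± 0.11 (edgeR adjusted p 1.25e-07).

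UGCG (chromosome 9, 111896766 to 111935369, plus strand) makes glucosylceramide, from which most glycosphingolipids are built. It was measured at 41.9, 42.3 and 48.3 CPM with the mimic and at 57.9, 56.3 and 55.4 CPM in the mock group. Mimic replicate 3 was the highest of its group and remained below the mock libraries. The change was −0.36 ± 0.07, with an edgeR adjusted p of 0.000236.

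B4GALT5 and B4GALT6 encode the enzymes that extend glucosylceramide to lactosylceramide, and both fell. B4GALT6 (chromosome 18, 31622247 to 31685836, minus strand) was measured at 26.8, 27.1 and 26.3 CPM with the mimic and at 32.8, 40.2 and 44.4 CPM in the mock group. The mimic libraries were nearly equal while the mock libraries were spread out, and the change was −0.54 ± 0.09 (edgeR adjusted p 1.25e-05). B4GALT5 (chromosome 20, 49632945 to 49713878, minus strand) was measured at 97.7, 100 and 100 CPM against 115, 117 and 123 CPM. It was again lower in every mimic library, by −0.25 ± 0.06 (edgeR adjusted p 0.000979). Per kilobase B4GALT5 was the higher of the 2 in both groups, and their summed level was 32.4 ± 1.97 CPM per kb in the mock and 26.1 ± 0.33 CPM per kb in the mimic group.

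**Figure D4:**
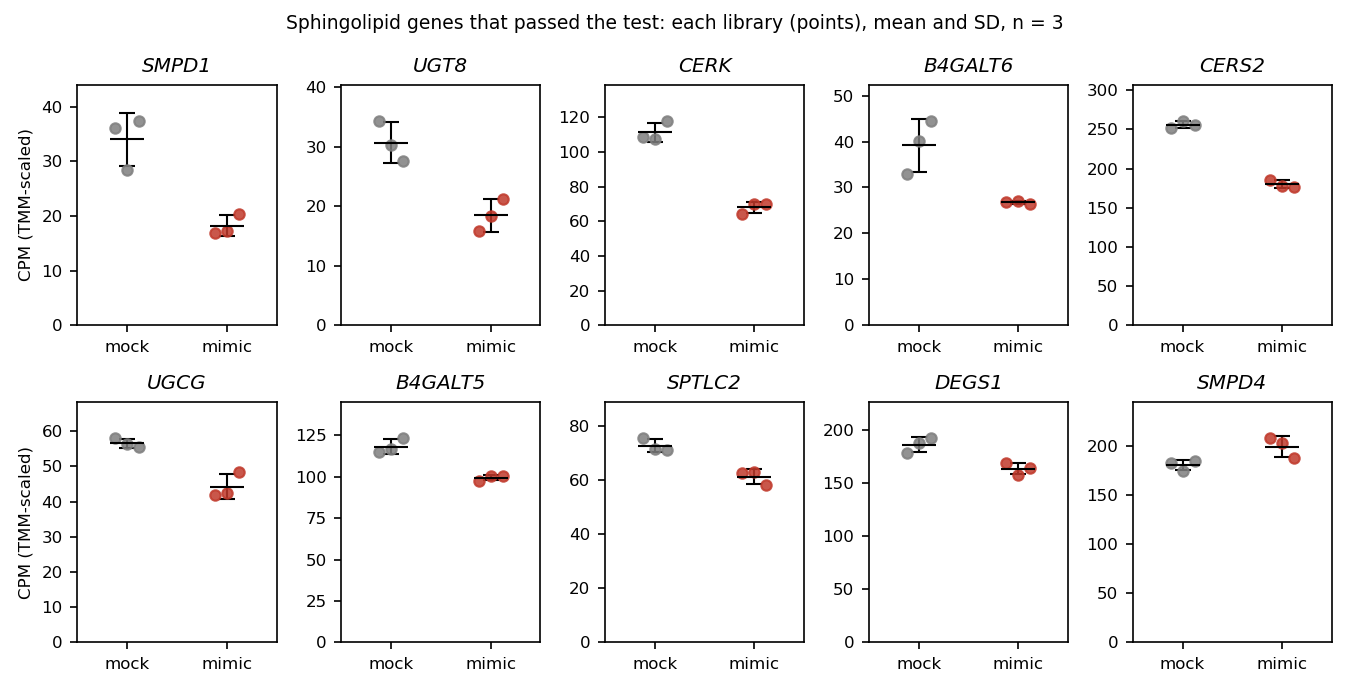
Levels in CPM (vertical axes, from 0) of the 10 sphingolipid genes that passed the test in each mock (grey) and mimic (red) library, with the mean and SD over 3 libraries in black, ordered from the largest decline to the rise. In each of the first 9 panels all mimic points lie below all mock points. In the SMPD4 panel mimic replicate 3, at 188 CPM, lies just above the highest mock library, at 185 CPM.

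The 3 other glycosphingolipid genes among the 37 tested did not pass. ST3GAL5, which sialylates lactosylceramide to the ganglioside GM3, was at 18.3 ± 0.69 and 19.4 ± 1.96 CPM. The lysosomal enzymes that remove galactose were GALC (15.6 ± 0.47 and 15.6 ± 1.9 CPM), whose loss causes Krabbe disease, and GLA (98.4 ± 2.7 and 104 ± 4.05 CPM), whose loss causes Fabry disease. All 3 had overlapping groups. GLTP, a glycolipid transfer protein, had a change of −0.11 ± 0.10, and CPTP, which carries the ceramide 1-phosphate made by CERK, of −0.02 ± 0.11.

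Another 60 genes of fatty acid elongation for ceramides, sphingolipid transport, lysosomal breakdown, gangliosides and S1P signalling were listed beside the 40. Of these, 6 were listed in no library and 6 had too few counts, which left 48 tested genes. Whether the 6 unlisted genes had no reads or were missing from the authors' annotation is unknown. Of the 48, 5 fell (10.4%) and 1 rose (2.08%), against 6.19% and 6.8% of all tested genes. Their median log2 fold change was −0.05, against 0.00 over all tested genes. At an unadjusted edgeR p under 0.05, 13 of the 48 differed (27.1%), against 25.5% of all tested genes. HACD2, a dehydratase of very-long-chain fatty acid elongation, fell from 55.2 ± 1.35 to 40.6 ± 3.04 CPM (−0.45 ± 0.08, edgeR adjusted p 6.41e-06). PLPP3, a phosphatase of S1P and related lipid phosphates at the cell surface, fell from 21.9 ± 2.25 to 15.6 ± 0.92 CPM (edgeR adjusted p 0.00128). ALDH3A2, which oxidises the fatty aldehyde that S1P lyase releases, changed by −0.22 ± 0.06 (edgeR adjusted p 0.00369). In each of these 3 genes all mimic libraries lay below all mock libraries. That held for 12 of the 48 genes (25%), against 13.9% of all tested genes.

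The remaining changes of that list were weaker. PSAP, the precursor of the saposins that help lysosomal enzymes reach their lipids, was at 526 ± 38.3 CPM with the mimic and 584 ± 11.3 CPM in the mock group, and its call (edgeR adjusted p 0.0209) ended in 4 of 11 alternatives, where leaving out mimic replicate 3 gave 0.125, mock replicate 3 0.112 and mock replicate 1 0.0895, and DESeq2 gave 0.06, while the lowest of the 11 was 0.00704. GLB1, a lysosomal beta-galactosidase, was at 53.2 ± 1.5 and 61 ± 3.93 CPM, with an edgeR adjusted p of 0.0479 and 0.0318 to 0.237 over the alternatives. GLB1 kept its call in only 3 of the 11. FADS3, which desaturates long-chain bases, was the risen gene, at 28 ± 0.76 and 22.9 ± 2.42 CPM, with an edgeR adjusted p of 0.0437 and 0.0383 to 0.239 over the alternatives. The FADS3 call held in only 4 of the 11. CERT1, which carries ceramide to the Golgi for sphingomyelin synthesis, did not pass (−0.19 ± 0.07), nor did the S1P receptors S1PR1 (0.20 ± 0.14) and S1PR3 (−0.19 ± 0.10) or the S1P exporter SPNS2 (0.14 ± 0.07). Exons of CERT1 overlap those of POLK, and exons of SPNS2 those of MYBBP1A, on the opposite strand, so their values are uncertain.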

How the data were processed

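Per the labels' protocols, ribosomal RNA was removed before library preparation, and single-end reads of 100 bases were sequenced. The authors deposited whole-number counts by Ensembl gene, and genes missing from a library's list were taken as 0. STAR, edgeR and hg19 are named, without versions, per the submitters' processing notes. For the counting program, annotation and strand setting nothing is stated there. A gene listed in no library may therefore have had no reads or be missing from that annotation. Libraries were grouped by title, and pairs within a group differed by 1.27 to 2.38 times the sampling variation, so each counted as 1 replicate.

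Counts were filtered with filterByExpr by group, scaled by TMM and tested with edgeR 4.0.16 in R 4.3.3 by the robust quasi-likelihood F-test with group as the only term, and p-values were adjusted by Benjamini and Hochberg's method. The method was tested on simulated data. CPM errors are SDs over 3 libraries, and log2 fold change errors are SEs from the test statistic. Alternatives were RLE factors, DESeq2 1.42.0, no filter, a mean of at least 5 CPM, a replicate block and leaving out each library.

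Symbols were found for 25236 of 26613 genes. Exon lengths, overlaps, coordinates and 3′ UTRs of protein-coding transcripts came from GENCODE release 29 (GRCh38), not the authors' build. The search of coding sequences was added after seeing the data. A level per kilobase divides CPM by the summed exon union. Values in every library are given for called sphingolipid genes and for the 6 others with the smallest p and at least 5 CPM. The genes and lists were chosen with earlier results of these data known. Some items, among them a target site sequence, are not reported here.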

Additional observations from a re-analysis of the deposited data

How the results depend on the processing

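Of 9 fallen sphingolipid genes, 7 kept their call under all 11 alternatives, and SPTLC2 and DEGS1 each lost it in 1. The number of called sphingolipid genes stayed between 8 and 10, with 8 to 10 fallen. Over all genes, edgeR called 2027, DESeq2's Wald test 1015, and leaving out 1 library gave 1301 (without mock replicate 1) to 2055 (without mimic replicate 3). In the wider pathway list DESeq2 called 3 genes, not 6. No gene named with a call changed sign under any alternative. A match to bases 2 to 7 of miR-941 followed by A was found in 0 of the tested sphingolipid genes. Among all tested genes with an annotated 3′ UTR, the set also used for the other matches here, the share was 1.5%. The 6-base match was found in 3 (8.11%, against 13.4%), where the 7-base match was found in 2 (5.41%, against 4.87%). With the length of the longest transcript, 8 of 9 families kept their order, and SGMS1 and SGMS2 changed places. Same-numbered libraries did not deviate together (correlations of 0.04, −0.05 and −0.02), so the numbers were not taken as pairs. With the replicate block edgeR called 1819 genes, 9 of the sphingolipid genes and 4 of the wider list. SMPD3 and ACER2, with few counts, had log2 SEs of 0.19 and 0.20, against 0.05 in CERS2, so small changes were not detectable in them.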
